A study of Mus musculus with 4 samples.

Results

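MHC class I presentation and the immunoproteasome were followed through 10 genes, H2-K1, H2-D1, B2m, Tap1, Tap2, Tapbp, Psmb8, Psmb9, Psmb10 and Nlrc5. They were taken from the deposited table by gene symbol, as a list written with earlier results of these data known, and the table held 1 row for each of the 10 among its 22063 genes. RNA had been sequenced from ID8, a mouse ovarian cancer cell line, carrying either a control shRNA (shCtrl, labelled as wild-type genotype) or an shRNA that knocks down USP9X (shUSP9X), with 2 libraries in each group. Both groups therefore carried an shRNA, and nothing else separates them in the labels. The study made its shRNAs as lentiviruses in the pLKO.1-puro vector. The sources do not state which of the mouse shRNA sequences was used, whether the cells were clones or pools, or, for the sequenced cells in particular, the oxygen level and any added cytokine. Depth was similar across libraries, with totals of 17232006 and 15611363 estimated counts for shCtrl against 19978889 and 17021261 for shUSP9X. A floor of detection of 3 counts therefore lay between 0.152 and 0.19 CPM, the count scaled to a common library size.

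Class I molecules carry short peptides from the cell interior to the cell surface, where cytotoxic T cells read them. The peptides are cut by the proteasome, moved into the endoplasmic reticulum by the TAP transporter, and loaded with the help of tapasin onto a heavy chain paired with β2-microglobulin. In cells exposed to interferon, the catalytic subunits of the proteasome are replaced by immunosubunits, and NLRC5 acts as the transactivator of class I genes, through a set of promoter elements called the S, X and Y boxes.

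The target of the shRNA was read first. Usp9x, which encodes a deubiquitinase, was counted 5169 and 4453 times in the shCtrl libraries and 390 and 346 times in the shUSP9X libraries. Its level was 289.8 ± 11.6 CPM in shCtrl and 20.13 ± 0.57 CPM in shUSP9X (SD, n = 2), a log2 fold change of -3.85 (SE 0.0585, edgeR adjusted p = 4.66e-26), or -2.44 once the trend on GC content and transcript length was removed from each library. The libraries thus carried the knockdown that their labels name. Fold changes are on the log2 scale, shUSP9X against shCtrl, and p-values were computed by edgeR (quasi-likelihood) and adjusted by Benjamini-Hochberg across the 11448 genes tested. Nothing in the sources says that the 2 libraries of a group came from separate cultures, so the p-values measure only the spread between these libraries.

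All 10 genes were higher in shUSP9X at an adjusted p under 0.05, and none was lower, whereas 33.8% of all genes tested were called higher and 33.6% lower, so that 67.3% changed in either direction. For each of the 10, both shUSP9X libraries lay above both shCtrl libraries, which was so for 41.2% of all genes tested. Their log2 fold changes ran from 0.63 in B2m to 2.61 in Nlrc5, with a median of 1.15 against a median of -0.000513 over all genes. B2m lay at percentile 90.12 of all log2 fold changes and Nlrc5 at percentile 99.02. Of the 10, 6 were called with a log2 fold change of at least 1, a size that 3.41% of all genes tested reached upward. Of these 6, Psmb9 and Nlrc5 held few counts in shCtrl, and the others were H2-K1, Tap1, Psmb8 and Psmb10. The study's own cutoff (fold change above 1.5 with an unadjusted p under 0.05) also kept all 10 as higher, and 10.8% of all genes tested. Psmb9 and Nlrc5 passed the filter on low counts only through their shUSP9X libraries. Among the 8 others, which had at least 10 counts in every library, 8 were higher with a median of 0.99, and 4 reached a log2 fold change of 1. After correction for the trend on GC content and length, H2-K1 (0.96) and Psmb8 (0.83) no longer did, which left 4 of the 10 and 2 of these 8. Psmb9 and Nlrc5 were among those 4. The share of all genes that reached this size was not computed for the corrected fit. Summed, the 10 genes made up 0.0789 and 0.0802% of shCtrl counts against 0.140 and 0.143% of shUSP9X counts. In RNA from bulk cultures, more cells that transcribe a gene and more RNA per cell cannot be told apart.

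**Figure D1:**
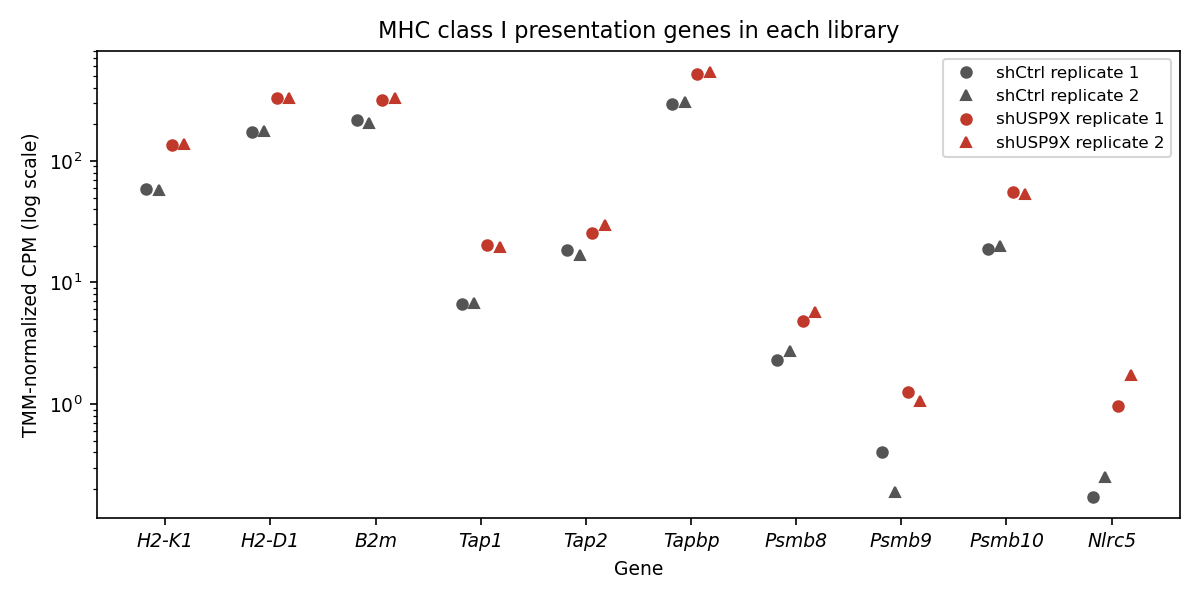
CPM on a log10 axis for the 10 genes, with 1 point per library (grey for shCtrl, red for shUSP9X, the marker shape giving the replicate). Both shUSP9X points lie above both shCtrl points for every gene, from Nlrc5 and Psmb9 near the floor of 3 counts up to Tapbp, at 298.8 CPM in shCtrl and 530.5 CPM in shUSP9X.

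The classical heavy chain H2-K1 (chr17:33996017-34000347, minus strand, GRCm38) was counted 1018 and 910 times in shCtrl, against 2652.31 and 2318 in shUSP9X. Both knockdown libraries were far above both controls, at 58.13 ± 0.815 CPM in shCtrl and 135.9 ± 2.41 CPM in shUSP9X (log2 fold change 1.22, SE 0.0531, adjusted p = 6.23e-17). H2-D1, the other classical heavy chain (chr17:35262730-35267499, plus strand), had 2979 and 2806.44 counts in shCtrl, against 6539.19 and 5546.69 in shUSP9X. Its groups did not overlap either, and the log2 fold change was 0.92 (SE 0.0401, adjusted p = 6.97e-17). Heavy chain genes are close copies of each other, and their reads can be divided between them by the counting. H2-K1 shared no 100-base stretch of its transcripts with any other annotated gene, and H2-D1 shared 4.09% of its 100-base stretches, while at 50 bases the shares were 6.87% and 13.9%. With the classical and nonclassical heavy chain genes summed into 1 value, so that the division among them no longer counts, the log2 fold change was 0.98 (SE 0.0351, adjusted p = 2.24e-18).

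B2m, the light chain that every class I heavy chain needs (chr2:122147686-122153083, plus strand), was counted 3738 and 3223 times in shCtrl, against 6313 and 5581 in shUSP9X. The libraries fell into separate groups, at 209.7 ± 8.29 and 325.3 ± 8.39 CPM, and the log2 fold change of 0.63 (SE 0.0409, adjusted p = 2.92e-13) was the smallest of the 10. It lies outside the MHC region, on another chromosome from the heavy chains. Patl2 overlaps it on the opposite strand and had 0 counts in every library.

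Promoter stretches of these 3 genes are shown because the genes moved together and because 2 short strings, known from the X2 and Y boxes, stand in the same arrangement in each. The S and X1 boxes were not searched for. Each stretch is read in the direction of transcription from RefSeq's promoter table (GRCm38.p6). Capitals mark, in this order, a κB match (GGGNNTTCC) or an interferon-stimulated response element (GAAA, any 2 bases, GAAA), then TGACG (the X2 box) and ATTGG (the Y box, CCAAT read on the other strand). The windows are chr17:34000354-34000463 for H2-K1, chr17:35262918-35263027 for H2-D1 and chr2:122147543-122147643 for B2m, each upstream of the RefSeq start, although GENCODE gives H2-D1 a further start before its window.
H2-K1: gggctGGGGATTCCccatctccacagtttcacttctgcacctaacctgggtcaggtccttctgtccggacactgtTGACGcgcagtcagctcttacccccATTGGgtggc
H2-D1: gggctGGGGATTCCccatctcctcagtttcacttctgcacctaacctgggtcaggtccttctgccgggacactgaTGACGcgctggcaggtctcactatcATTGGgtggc
B2m: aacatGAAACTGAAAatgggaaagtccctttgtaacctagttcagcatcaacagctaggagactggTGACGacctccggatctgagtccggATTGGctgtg

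In all 3, the first base of ATTGG stood 25 bases after the first base of TGACG. This pair at this spacing was present in the 250 bases upstream of the start in 30 of 32851 promoters, or 0.0913%. The spacing was chosen after it had been seen in these genes. Of the 23 other genes that carry the pair, 14 were tested, with a median log2 fold change of -0.18. Beside 33.8% higher and 33.6% lower among all genes tested, 3 of the 14 were higher in shUSP9X and 8 were lower. The heavy chain gene H2-M3 was among them, with 113 and 104 counts in shCtrl, against 110 and 98 in shUSP9X (log2 fold change -0.20, adjusted p = 0.338). After removal of the trend on GC content and length, H2-M3 was called lower (-0.44, adjusted p = 0.0378). The counts of the other genes with the pair were not recomputed with that correction.

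RefSeq's table held a promoter for 8 of the 10 genes, and none for Tap2 and Nlrc5. Searched on both strands over the same 250 bases, TGACG was found in B2m, H2-D1, H2-K1, Psmb9 and Tap1, and in 17.8% of all promoters. CCAAT was found in those 5 and in Tapbp, and in 33.8% of all promoters. The κB match was found in H2-D1 and H2-K1, and in 4.98% of all promoters. The strict string for the interferon-stimulated response element (GAAA, any 2 bases, GAAA) was found in B2m (2.98% of all promoters). The palindrome TTCNNNGAA was found in Psmb8 (7.02% of all promoters). Looser forms of the response element were not searched for, so its absence from the other promoters is not shown. The Psmb10 promoter held none of these motifs. A match describes the letters only and does not show that a factor binds there.

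Among the genes for transport and loading, Tap1 moved most. Tap1, a subunit of the transporter that carries peptides into the endoplasmic reticulum (chr17:34187553-34197225, plus strand), was counted 116 and 108 times in shCtrl, against 401 and 329 in shUSP9X. Both shUSP9X values stood well above both shCtrl values, and the log2 fold change was 1.56 (SE 0.131, adjusted p = 6.09e-11). Its partner Tap2 (chr17:34203527-34216321, plus strand) had 320 and 266 counts in shCtrl, against 507 and 499 in shUSP9X, a log2 fold change of 0.64 (SE 0.106, adjusted p = 7.11e-06). Per length, Tap1 rose from 2.28 and 2.37 FPKM to 6.82 and 6.64 FPKM, and Tap2 from 5.40 and 4.95 FPKM to 7.37 and 8.52 FPKM. The transporter holds 1 subunit of each kind, and the level of Tap1 lay below that of Tap2 in all 4 libraries. The difference between the changes of Tap1 and Tap2 was not tested.

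Tapbp encodes tapasin, which bridges TAP and the empty heavy chain (chr17:33915899-33929292, plus strand). It was counted 5054 and 4841 times in shCtrl, against 10309 and 9087.96 in shUSP9X, with no overlap and a log2 fold change of 0.83 (SE 0.0376, adjusted p = 1.66e-16). It overlaps Zbtb22 on the same strand over 3422 bases. Zbtb22 itself had a log2 fold change of 0.13 (adjusted p = 0.20).

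Among the immunosubunits, which replace the catalytic subunits of the standard proteasome, Psmb10 was the most abundant and Psmb9 lay near the floor. Psmb8, which takes the place of Psmb5 (chr17:34197721-34201454, plus strand), had 40 and 43 counts in shCtrl, against 96 and 96 in shUSP9X. The 2 groups were distinct, and the log2 fold change was 1.07 (SE 0.244, adjusted p = 4.04e-04). Psmb9, which takes the place of Psmb6 (chr17:34181987-34187764, minus strand), had 7 and 3 counts in shCtrl, against 25 and 18 in shUSP9X. These are low counts, and the ratio of the summed counts, scaled for depth, was 3.89 with a 95% interval of 1.93 to 8.69 that covers counting error only. The edgeR log2 fold change of Psmb9 was 1.94 (SE 0.561, adjusted p = 0.00368). Psmb9 is the member whose call depended on single libraries, since its adjusted p was 0.0653 without shCtrl replicate 2, 0.0836 without shUSP9X replicate 1 and 0.0671 in DESeq2. Its log2 fold change was 1.52, 1.81 and 1.98 in those settings, and 2.59 without shCtrl replicate 1.

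Psmb10, which takes the place of Psmb7 (chr8:105935735-105938444, minus strand), was counted 324 and 314 times in shCtrl, against 1101 and 907 in shUSP9X. Its groups were far apart, at 19.27 ± 0.83 and 54.77 ± 1.32 CPM, and the log2 fold change was 1.51 (SE 0.0832, adjusted p = 1.04e-14). Like B2m, it lies outside the MHC region.

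Psmb9 and Tap1 are neighbours transcribed away from each other, and their RefSeq starts are 226 bases apart. The whole stretch between them is shown because both genes rose and share it (chr17:34187331-34187555, plus strand, GRCm38.p6). Capitals mark CCAAT, near the Psmb9 start, and TGACG.
Psmb9-Tap1: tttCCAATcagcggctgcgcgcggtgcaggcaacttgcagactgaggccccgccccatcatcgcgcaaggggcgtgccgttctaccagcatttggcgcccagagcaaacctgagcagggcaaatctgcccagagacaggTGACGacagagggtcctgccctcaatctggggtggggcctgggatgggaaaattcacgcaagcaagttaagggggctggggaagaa
In GENCODE's annotation, where Psmb9 starts further upstream, the 2 genes overlap by 212 bases on opposite strands. The sources do not state whether counting used strand, so reads from that overlap cannot be assigned to either gene here.

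Immunosubunits compete with their constitutive counterparts for a place in the proteasome, so each was also set against its counterpart per length, as a share of the FPKM of the pair. Psmb10 made up 10.19 and 11.33% of its pair with Psmb7 in shCtrl and 20.53 and 20.35% in shUSP9X. Psmb8 made up 2.711 and 3.465% of its pair with Psmb5 in shCtrl and 3.879 and 4.949% in shUSP9X. Psmb9 made up 0.2292 and 0.1352% of its pair with Psmb6 in shCtrl and 0.5093 and 0.4397% in shUSP9X. The shUSP9X libraries had the higher share at all 3 sites without overlap, by 9.68 points for Psmb10, 1.33 for Psmb8 and 0.292 for Psmb9 on average, in percent of the pair. With CPM in place of FPKM, which leaves length out, these gaps were 10.51, 1.83 and 0.509 points. In exact two-sided permutation tests each gave p = 0.333, the smallest that 2 libraries against 2 can give. The gap for Psmb8 rested on few reads, at 0.791 points without shUSP9X replicate 2 and 1.86 points without shUSP9X replicate 1. The counterparts stayed the more abundant in both groups, Psmb7 by 8.30-fold in shCtrl and 3.89-fold in shUSP9X, Psmb5 by 31.4-fold and 21.7-fold, and Psmb6 by 544-fold and 210-fold. They too were higher in shUSP9X, with log2 fold changes of 0.38 for Psmb5 (adjusted p = 7.20e-07), 0.53 for Psmb6 (adjusted p = 5.98e-10) and 0.41 for Psmb7 (adjusted p = 1.09e-08). Once the trend on GC content and length was removed, Psmb5 was no longer called (0.04, adjusted p = 0.465) and Psmb6 had 0.27, while Psmb7 had 0.81 where Psmb10 had 1.20, so that Psmb10 and Psmb7 lay closer together than in the uncorrected values of 1.51 and 0.41. The shares above are not corrected for this trend.

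**Figure D2:**
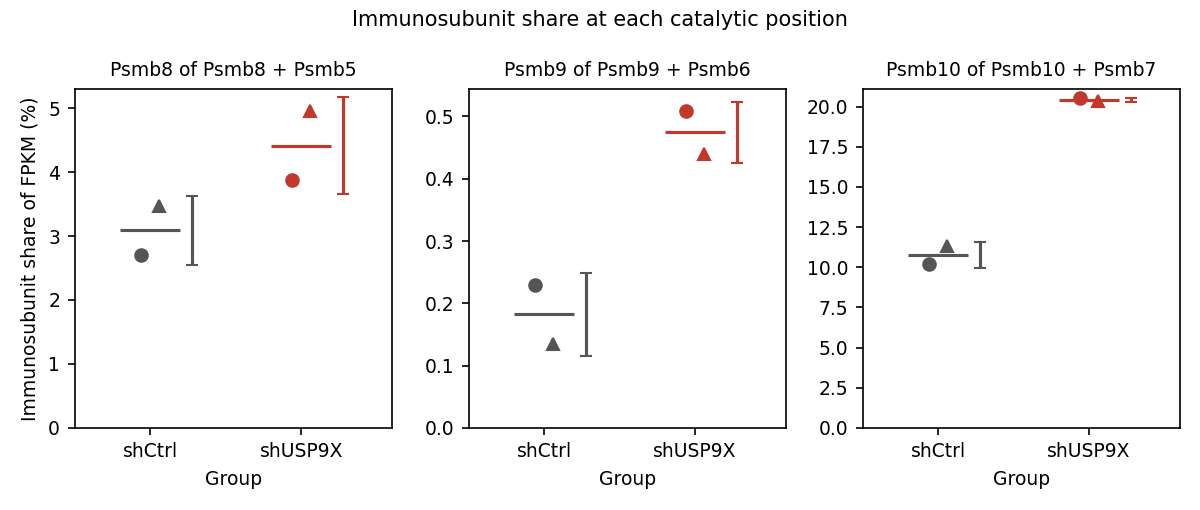
Share of each immunosubunit in the summed FPKM of its pair with the constitutive counterpart (%), with 1 point per library, a line at the mean of 2 libraries and a bracket of 1 SD on either side, each panel on its own axis from 0. The share was higher in both shUSP9X libraries at each site, at 20.44% against 10.76% for Psmb10, 4.41% against 3.09% for Psmb8 and 0.475% against 0.182% for Psmb9.

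Nlrc5, the transactivator of class I genes (chr8:94434356-94527272, plus strand), was close to the floor in the control cells. It had 3 and 4 counts in shCtrl, against 19 and 29 in shUSP9X, and no shCtrl library reached the lower shUSP9X value. In FPKM, Nlrc5 stood at 0.023 and 0.128 in shCtrl, against 0.146 and 0.387 in shUSP9X. By that measure shCtrl replicate 2 lay close to shUSP9X replicate 1. The ratio of summed counts, scaled for depth, was 6.21 with a 95% interval of 2.79 to 16.3 for counting error. The edgeR log2 fold change was 2.61 (SE 0.604, adjusted p = 4.65e-04), the largest of the 10 and the least precise.

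Levels of different genes were compared per length. In FPKM, the order in shCtrl was B2m (246.1 ± 8.61), Tapbp (113.0 ± 4.14), H2-D1 (86.9), H2-K1 (37.9), Psmb10 (14.8), Tap2 (5.17), Psmb8 (2.79), Tap1 (2.33), Psmb9 (0.233) and Nlrc5 (0.0755). Psmb8 and Tap1 were apart by less than the SD of Psmb8 (0.486). In shUSP9X the order was the same except that Tap1 (6.73 FPKM) stood above Psmb8 (5.15 FPKM), whose libraries were at 4.63 and 5.67 FPKM. The transcripts of the assembled molecule thus stood far above those of the transporter subunits and of Psmb8 and Psmb9 in both groups.

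Other genes of the pathway were read from lists of its neighbouring steps. Of 7 nonclassical class I genes tested, 4 were higher and 1 was lower, beside 33.8% higher and 33.6% lower among all genes tested. Their median log2 fold change was 0.68. After the correction for GC content and transcript length, 3 of the 7 were higher and 2 lower. Of all 11448 genes, 36.0% were then higher and 3172 genes lower. H2-T24 was then no longer called and H2-M3 was called lower. H2-T23, the ligand of the NKG2A receptor known as Qa-1, had 270 and 228.42 counts in shCtrl, against 722.34 and 626.91 in shUSP9X (2.455-fold higher, adjusted p = 6.82e-12). H2-Q4 had 88.48 and 69.53 counts in shCtrl, against 224 and 191 in shUSP9X (2.379-fold higher, adjusted p = 2.40e-07). Of their 50-base stretches, 28.8% for H2-T23 and 24.3% for H2-Q4 also occur in transcripts of other annotated genes, the most in the class I copies H2-T-ps and H2-Q6, so the division of reads between copies is uncertain. Mr1, which presents vitamin metabolites of microbes, went the other way, from 171 and 123 counts to 75 and 62 (log2 fold change -1.24, adjusted p = 3.51e-06).

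The loading and trimming genes were read beside all genes tested, of which 33.8% were higher and 33.6% lower. With the correction, 36.0% of all 11448 genes were higher and 3172 genes lower. Of the 8 chaperones and folding enzymes of peptide loading, 5 were higher and 3 lower, with a median of 0.15. None moved by 1 or more on the log2 scale. With the correction, 3 were higher and 2 lower and the median was 0.015, as Calr, Ganab and Sec61a1 were no longer called and Canx, the chaperone calnexin, turned from -0.33 to 0.13 (adjusted p = 2.48e-04). Of the 8 peptide-trimming enzymes, 3 were higher and 4 lower, with a median of -0.09, whereas with the correction 5 were higher and 2 lower, with a median of 0.27. Erap1, which trims peptides in the endoplasmic reticulum, went from 0.02 (adjusted p = 0.809) to 0.69 (adjusted p = 2.46e-09), and the peptidase gene Tpp2 from -0.84 to 0.22. The aminopeptidase gene Lnpep fell from 3350 and 3012 counts to 1512 and 1293 (log2 fold change -1.32, adjusted p = 1.35e-18), but with the correction its log2 fold change was 0.08 (adjusted p = 0.115). Genes of the proteasome itself were read beside the 33.8% of all genes that were higher. The 3 constitutive catalytic genes, 10 of the 11 other core particle genes (median 0.31) and 7 of the 9 activator and assembly genes (median 0.52) were higher. With the correction the numbers higher were 2, 9 and 6, beside 36.0% of all genes. Lower with it were 2 activator and assembly genes, Psme4 and the assembly chaperone gene Psmg4, beside 3172 of all 11448 genes. Psme4, the gene of the activator PA200, fell from 2906 and 2786 counts to 1370 and 1133 (log2 fold change -1.33, adjusted p = 4.02e-18; -0.78 with the correction).

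Over all 11448 genes tested, 33.8% were higher and 33.6% lower, and with the correction 36.0% were higher and 3172 genes lower. Of 14 genes for factors that act on class I promoters, 7 were higher and 2 lower, with a median of 0.25. With the correction 8 were higher and 3 lower. Among those higher were Stat2 and Irf9, which encode factors of the interferon response. Stat2 had 412 and 384 counts in shCtrl, against 1695 and 1518 in shUSP9X (log2 fold change 1.87, adjusted p = 2.56e-18). Irf9 had 217 and 232 counts in shCtrl, against 991 and 829 in shUSP9X (log2 fold change 1.87, adjusted p = 1.95e-15). Creb1, a factor that binds the X2 box, fell from 1566 and 1364 counts to 747 and 596 (log2 fold change -1.27, adjusted p = 2.00e-15), and by 0.16 with the correction. Named after their values had been seen, the genes of the RFX complex, which binds the X box, were not called, with adjusted p-values of 0.203 for Rfx5, 0.333 for Rfxap and 0.456 for Rfxank. With the correction, Rfxap was called lower (-0.33, adjusted p = 0.0157). Irf1, an activator of several class I genes, had a log2 fold change of 0.08 (adjusted p = 0.198), which turned to -0.15 with the correction (adjusted p = 0.00978).

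**Figure D3:**
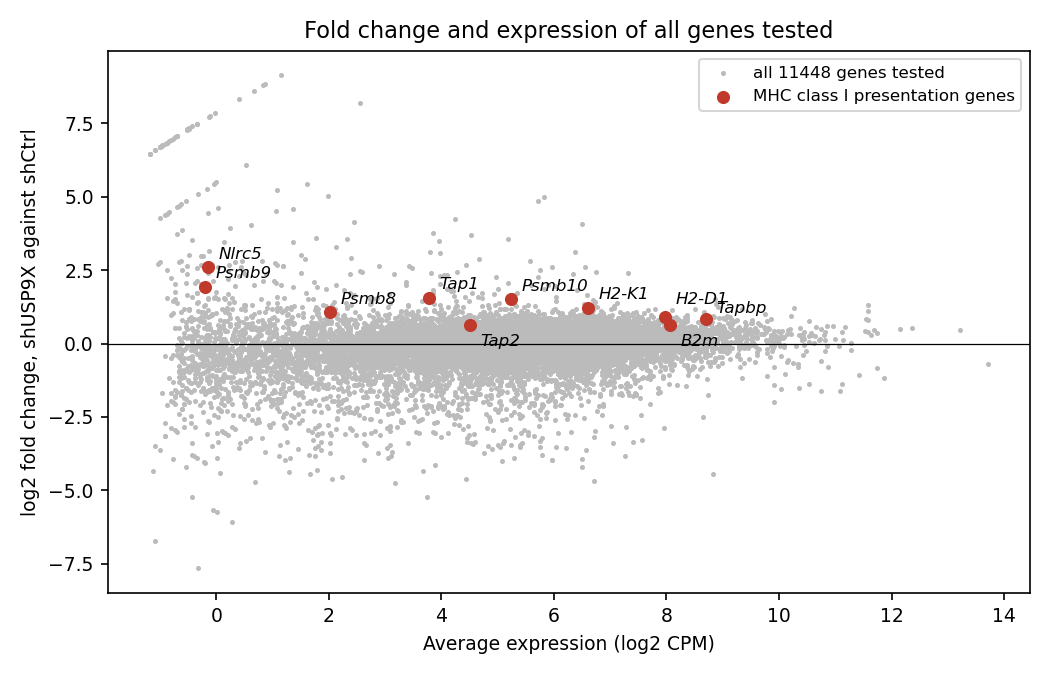
Log2 fold change (shUSP9X against shCtrl) against mean log2 CPM for all 11448 genes tested (grey), with the 10 class I and immunoproteasome genes named. All 10 lie above 0, and among them the scarcest, Psmb9 and Nlrc5, stand highest at 1.94 and 2.61, and B2m and Tap2 the lowest at 0.63 and 0.64.

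A total of 7 of the 10 genes lie in the MHC region of chromosome 17, and their neighbours there were counted too. Between Tapbp and H2-D1 (chr17:33915899-35267499) 51 genes were tested, the 7 and 44 others. Of the others, 23 were higher (52.3%), 3 lower and 18 not called, with a median log2 fold change of 0.22. Among all genes tested, 33.8% were higher and 33.6% lower, and in the GC deciles that hold the 7 genes between 46.9% and 49.5% were higher. The lowest of these neighbours was Ddah2, an enzyme gene of arginine metabolism, at -1.31, and the highest was Cfb, complement factor B, at 2.66.

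**Figure D4:**
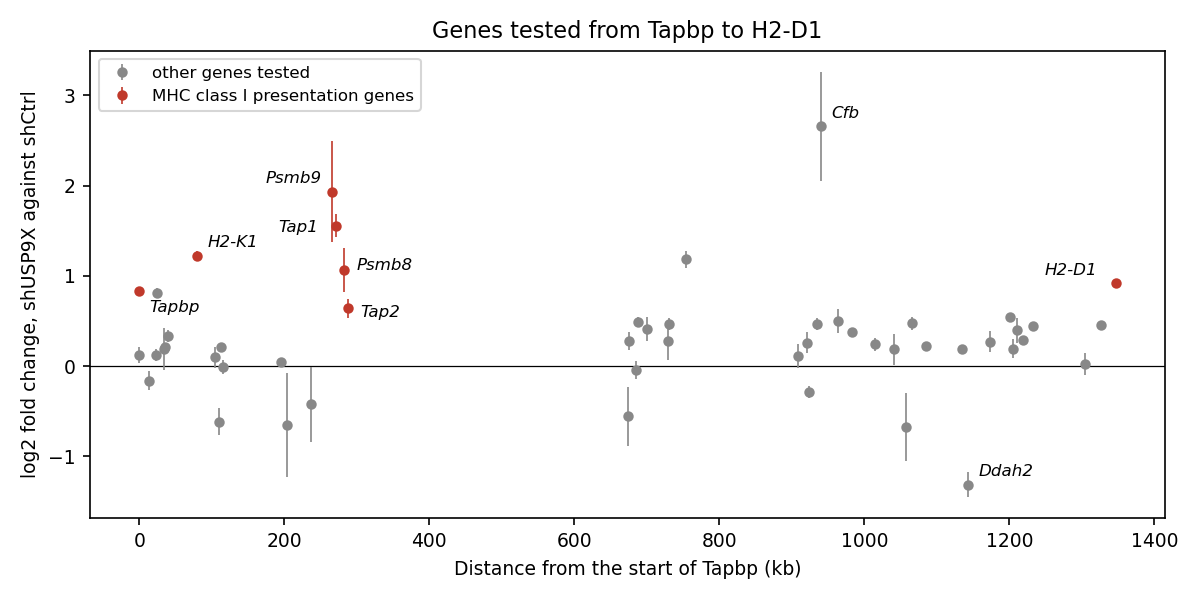
Log2 fold change of the 51 tested genes of the MHC region against their distance from the Tapbp start in kb, with the 7 class I and immunoproteasome genes in red and bars of 1 standard error. The 7 red points lie between 0.64 (Tap2) and 1.94 (Psmb9), among 44 others whose median is 0.22.

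GC content moved with the fold changes in this comparison. Among the 1143 genes of the lowest GC decile, 7.79% were higher, with a median log2 fold change of -0.80, and B2m (41.16% GC) belonged to it. The other 9 genes lay in deciles where between 46.9% and 49.5% of genes were higher. With the trend on GC content and length removed from each library, the log2 fold change was 0.93 for B2m, 0.96 for H2-K1, 0.66 for H2-D1, 0.47 for Tap2 and 1.20 for Psmb10. All 10 genes were again called higher in that fit, with a median of 0.94, beside 36.0% of all genes.

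**Figure D5:**
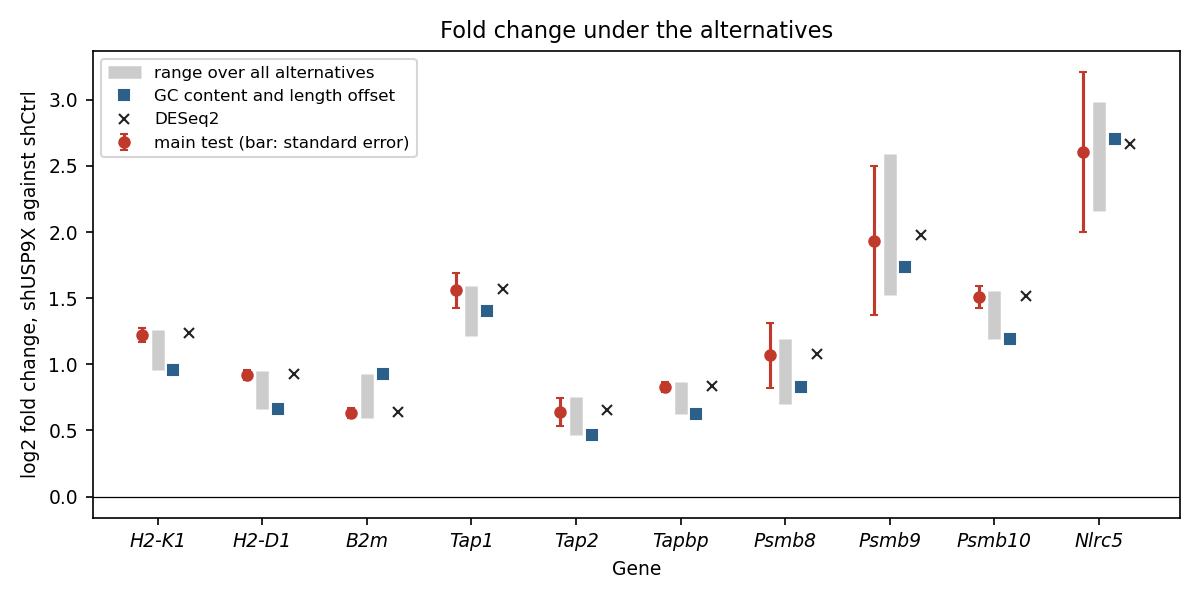
Log2 fold change of each of the 10 genes as reported (red, with a bar of 1 standard error), its range over the alternative settings (grey), and its value with the GC content and length offset (blue squares) and in DESeq2 (crosses). The ranges stay above 0 throughout, those of B2m between 0.60 and 0.93, those of Tap2 between 0.47 and 0.75, and those of Nlrc5 between 2.16 and 2.99.

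Other cells that make class I molecules were looked for through their markers. Of 16 leukocyte markers, 4 passed the filter, each with 0 counts in both shCtrl libraries. Itgam, an integrin of myeloid cells and the most abundant of the list, had 72 and 75 counts in shUSP9X, Adgre1, a macrophage marker, 58 and 59, Ptprc, the general leukocyte marker, 29 and 18, and Csf1r, a macrophage growth factor receptor, 17 and 13. The list summed to 1 and 1 counts in shCtrl and to 183 and 170 in shUSP9X, that is to 9.26 and 10.1 CPM. The 10 class I and immunoproteasome genes summed to 784.2 and 791.7 CPM in shCtrl and 1415 and 1449 CPM in shUSP9X. Tapbp, H2-D1, B2m and H2-K1 made up most of that sum. In shUSP9X, Psmb9 (1.17 CPM) and Nlrc5 (1.34 CPM) lay below Itgam (4.05 CPM) and Adgre1 (3.22 CPM), and Psmb8 (5.28 CPM) lay above them. The other members stood at 19.91 CPM (Tap1) or more. CPM leaves transcript length out. The T cell genes Cd3e and Cd3d, and the genes Nkg7, C1qa, C1qb, Xcr1 and Cpa3 were at 0 in all 4 libraries, and Lyz2 had 2 counts in 1 shUSP9X library. The part of these transcripts in the class I result was not tested.

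Of the 12 class II genes listed, 3 passed the filter. Of these 3, 1 was higher and none was called lower, beside 33.8% higher and 33.6% lower among all genes tested. H2-DMa, at 7 and 20 counts in shCtrl against 9 and 10 in shUSP9X, and H2-DMb1, at 21 and 26 counts in shCtrl against 25 and 14 in shUSP9X, had groups that overlapped. Cd74, the invariant chain, had 1 and 4 counts in shCtrl, against 49 and 45 in shUSP9X. It was the 1 gene called and passed the filter only through the shUSP9X libraries, so that a filter of at least 10 counts in every library left it untested. Among those that did not pass, H2-Ab1 was at 0 throughout, and H2-Aa and the class II transactivator Ciita had at most 3 counts in any library.

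The labelled cell type was read from epithelial and mesothelial markers, of which Krt8, Krt18 and Krt19 were abundant in both groups. Of 7 tested, 3 were higher and 2 lower in shUSP9X, beside 33.8% higher and 33.6% lower among all genes tested. With the correction, 2 of the 7 were higher and 4 lower, beside 36.0% of all 11448 genes higher and 3172 genes lower. Krt8 had 5441 and 5119 counts in shCtrl, against 11905 and 10141 in shUSP9X, and Krt19 had 12190 and 11246 counts in shCtrl, against 15535 and 12647 in shUSP9X, a log2 fold change of 0.12 that turned to -0.17 with the correction. The mesothelial marker Wt1 was present with 6210 and 5892 counts in shCtrl, against 5070 and 4253 in shUSP9X. Msln, the mesothelin gene, had 8207 and 7777 counts in shCtrl, against 6955 and 5834 in shUSP9X, and Upk3b had 2912 and 2572, against 3367 and 2891. Krt7, at 0 and 0 counts in shCtrl, against 2 and 3 in shUSP9X, Epcam, at 4 and 6 and at 1 and 6 counts, and Pax8, at 9 and 2 and at 3 and 7 counts, were near the floor.

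The genes outside the lists whose pattern over the 4 libraries lay nearest to the mean of the 10 were Nle1, Gadd45b, Nhp2, Selenow and Trim25. Likeness was the Euclidean distance between log2 CPM values centred on each gene's own mean, which was 0.0308 for Nle1, a ribosome assembly gene, and 0.048 for Trim25, a ubiquitin ligase of RNA sensing. Their log2 fold changes were 1.06 for Nle1, 1.06 for the stress gene Gadd45b, 1.04 for Nhp2, 1.10 for the selenoprotein gene Selenow and 1.04 for Trim25. In all, 254 genes (2.24%) lay within a distance of 0.25. With 4 libraries in 2 groups, such a profile holds little beyond the size of the group difference.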

How the data were processed

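The authors deposited, for each gene and library, an estimated count that was not normalized, and an FPKM value scaled for transcript length and depth. The submitters' processing notes name fastp 0.18.0, Bowtie2 2.2.8, HISAT2, StringTie 1.3.1 and RSEM, and the methods name GRCm38. The annotation release and the use of strand are not given in the sources used here. RNA was selected with oligo(dT) and no molecular identifiers are described, so intervals and floors cover counting error only.

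Estimated counts (6.395 to 6.69% not whole) were rounded, filtered with filterByExpr, scaled by TMM and tested with edgeR 4.0.16 (R 4.3.3) without a replicate block, at a common biological coefficient of variation of 0.0352. Coordinates, GC content and length came from GENCODE M21 (GRCm38) and promoters from RefSeq (GRCm38.p6). CPM, FPKM and log2 values are described by the mean and SD of 2 libraries. The procedure was tested on simulated data with known changes.

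Genes named are the 10 members, Usp9x, the 3 constitutive catalytic subunits, genes of the lists with an adjusted p under 0.05, an absolute log2 fold change of at least 1 and no overlap, markers above 3 counts, the 5 nearest profiles, and the lowest and highest of the MHC region. Some genes that this rule names are not reported here. The other genes named were chosen after their values were seen. The members and lists were chosen with earlier results of these data known. H2-T10, for which no row was found, was left out, and Nrdc was matched as Nrd1.

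The alternatives were DESeq2 1.42.0, other scalings and filters, counts not rounded, limma-trend (limma 3.58.1) on log2(FPKM + 1) and log2(FPKM + 0.1), a replicate block, an offset that takes out GC content and length trends (loess, span 0.3, fitted per library), that offset with the block, each library left out in turn, and CPM in place of FPKM for the shares.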

Additional observations from a re-analysis of the deposited data

How the results depend on the processing

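In every alternative, each of the 10 genes that was tested kept a positive log2 fold change. With 2 libraries in each group, all 10 were called higher in every edgeR fit that tested all 10. In those fits between 27.0% (no filter beyond 1 count) and 36.2% (upper quartile scaling) of all genes were higher. In DESeq2 the number was 9, beside 25.1% of all genes, as Psmb9 missed the threshold (adjusted p = 0.0671, log2 fold change 1.98). It was 8 of 8 tested with at least 10 counts in every library, beside 34.0% of all genes. Both limma-trend fits on FPKM also called 8 of 8, beside 31.5%. Psmb9 and Nlrc5 were not tested in these 3 settings. With 1 library left out, the call of Psmb9 depended on the library, with log2 fold changes from 1.52 to 2.59, against 1.94 as reported. The median log2 fold change of the members was 0.99 with at least 10 counts in every library, 0.85 on log2(FPKM + 1), 0.87 on log2(FPKM + 0.1), 0.94 with the GC content and length offset, and 0.94 with the replicate block and that offset. It ran from 1.09 to 1.22 when 1 library was left out. The cause of these shifts was not tested, except that the first 3 settings leave out the members with the fewest counts, which had the highest fold changes. With the replicate block alone, 10 members were higher, the median was 1.15, and 33.7% of all genes were higher, and it changed no call among the members. Libraries with the same replicate number showed no shared deviation over genes (correlation of deviations -0.0453 over 2 pairs). With 2 pairs this cannot tell whether the samples were paired. The Usp9x log2 fold change was -2.44 with the GC content and length offset. With CPM in place of FPKM, the shift in share was 0.509 percentage points for Psmb9, 10.51 for Psmb10 and 1.83 for Psmb8. Depth limits Psmb9 and Nlrc5, whose shCtrl libraries held between 3 and 7 counts. Of 74 list genes tested outside the members, the offset left 10 no longer called, added 8 calls and turned the direction of 3 that were called in both fits, Canx, Tpp2 and Krt19 (0.12 to -0.17).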
